A study of Homo sapiens with 4 samples.

Results

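Levels of 10 oncofetal and progenitor markers of the liver were followed in human liver cancer cells given a mimic of the microRNA miR-4730. The genes were AFP, GPC3, IGF2, IGF2BP1, IGF2BP3, LIN28B, DLK1, EPCAM, SOX9 and PROM1, chosen by name, and each was read from the probe set annotated to its symbol. They are 10 of 17687 named genes on the array, and all 10 were among the 12381 genes tested. Each gene had 1 probe set. The 4 groups were Li-7 cells with the miR-4730 mimic, Li-7 cells with the negative control, HEP-G2 cells with the mimic and HEP-G2 cells with the negative control, with 1 Affymetrix array of total RNA in each. Li-7 and HEP-G2 are established human liver cancer lines. The mimic was transfected with a lipid reagent at a final 3 nM, 24 h after seeding, and the control was a commercial oligonucleotide labelled negative control. Li-7 was grown in RPMI-1640 and HEP-G2 in DMEM, so line and medium cannot be told apart. No group had a replicate array.

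Oncofetal genes are active in the fetal liver, are shut down in the adult hepatocyte and return in many liver tumours. AFP, an albumin relative secreted by fetal hepatocytes, and GPC3, a heparan sulfate proteoglycan of the cell surface, are the best known of them in diagnosis. Other members form a chain of growth control. LIN28B blocks the maturation of let-7 microRNAs, let-7 represses messengers that include those of the IGF2BP proteins, and the IGF2BP proteins bind and protect other messengers. EPCAM, SOX9, PROM1 and DLK1 mark bipotent or biliary progenitors.

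The mature sequence of the transfected microRNA and that of let-7a, the best studied target of LIN28B, are shown because their seeds (bases 2 to 8, in capitals) differ. Both are from RefSeq, build GRCh38.p14.
hsa-miR-4730: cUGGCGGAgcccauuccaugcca
hsa-let-7a-5p: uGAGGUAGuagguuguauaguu
The miR-4730 locus is chr17:80419427-80419449 on the plus strand. Its seed was found in 1 mature human microRNA name of the table, its own, whereas the let-7a seed was shared by 11 names, among them let-7b, let-7c and miR-98.

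Values are on the deposited log2-like scale, and a difference of 1 is read as 2-fold. Negative control probe sets give a background for each array. A value is called dim where it lies below their 95th percentile on its own array. This limit was 7.99 in Li-7 with mimic, 8.72 in Li-7 with control, 8.20 in HEP-G2 with mimic and 8.35 in HEP-G2 with control. Between 6494 and 7557 of 17687 genes were above it per array. HMGA1, the chromatin protein that the series names as the target of miR-4730, stood at 10.91 with mimic and 14.93 with control in Li-7, and at 11.61 with mimic and 14.79 with control in HEP-G2. It fell in the common test (mean change -3.59, SE 0.29, limma adjusted p = 0.0241).

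The labelled cell types were set against marker lists. All 9 hepatocyte markers measured were above the dim limit on both HEP-G2 arrays and lower in Li-7, and 0 of the 9 were above it on both Li-7 arrays. Among them APOB, the structural protein of very low density lipoprotein, stood at 4.11 and 4.23 in Li-7, mimic and control, and at 17.14 and 16.72 in HEP-G2. SERPINA1 (8.40 with mimic and 6.65 with control) and APOH (8.86 and 8.31), both secreted plasma proteins, were above the limit on the Li-7 mimic array alone. The Li-7 limits were 7.99 with mimic and 8.72 with control. The APOH control value was thus under its own limit but above that of the mimic array. The other hepatocyte markers were dim on both Li-7 arrays. All 4 biliary markers measured were above the limit on both Li-7 arrays and higher there, and 2 of 4 were above it on both HEP-G2 arrays. Of the hepatocyte markers, APOB, TF and AHSG reached the filter through HEP-G2 alone. Of the biliary markers, CFTR reached it through Li-7 alone. The line calls of APOB, TF, AHSG and CFTR are therefore descriptions. Of the markers of other cells, 3 of 5 for fibroblasts, all 4 for endothelium and 3 of 5 for blood were dim on every array. The fibroblast exceptions were COL1A2, a collagen chain, above the limit on all 4 arrays (8.57 and 8.92 in Li-7, mimic then control, and 8.62 or higher in HEP-G2), and LUM, a matrix proteoglycan, above it in Li-7 (9.26 and 8.75) and dim in HEP-G2 (2.46 and 3.59). Their part in the results was not tested. The summed values of the lists per array ran from 31.0 to 33.1 in Li-7 and 27.4 to 27.5 in HEP-G2 for fibroblasts, from 18.1 to 18.2 and 18.2 to 18.7 for endothelium, and from 36.4 to 39.0 and 41.6 to 42.0 for blood. The blood list held a pair of genes above the limit on all arrays, LYZ, lysozyme, at 12.09 and 13.47 in Li-7 and 16.83 and 16.66 in HEP-G2, mimic then control, and CD68, a lysosomal protein.

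The lines carried different sets of the 10 genes. AFP, GPC3, DLK1 and LIN28B were dim in Li-7 and above the limit in HEP-G2, and IGF2 was the reverse. IGF2BP1 was above the limit in both lines and lower in Li-7, EPCAM was above it in both and higher in Li-7, and IGF2BP3, SOX9 and PROM1 were above it in both with no line call. The line test called 7 of the 10 genes, against 44.9% of all genes. Of the 7, 2 were higher in Li-7, against 24.3% of all genes, and 5 were lower, against 20.7%. The lines did not overlap for the same number, 7 of 10, against 68.3% of all genes. Dim in Li-7 and bright in HEP-G2 were 4 of the 10 genes, against 4.84% of all genes, 1 was dim in HEP-G2 and bright in Li-7, against 4.64%, and 5 were dim on no array, against 44.8%. With genes dim in 1 line taken at their bound, a line difference of at least 4 units in size was found for 5 of the 10 genes. It was found for 1.56% of all genes, where those dim in both lines stay in the total and count as not reaching it. None of the 10 was dim in both lines. AFP, GPC3 and LIN28B had low Li-7 values and reached the filter through HEP-G2 alone. These counts, and the line p values given for those genes below, are therefore descriptions. In RNA of whole cultures, fewer cells with a transcript and less of it per cell cannot be told apart.

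**Figure D1:**
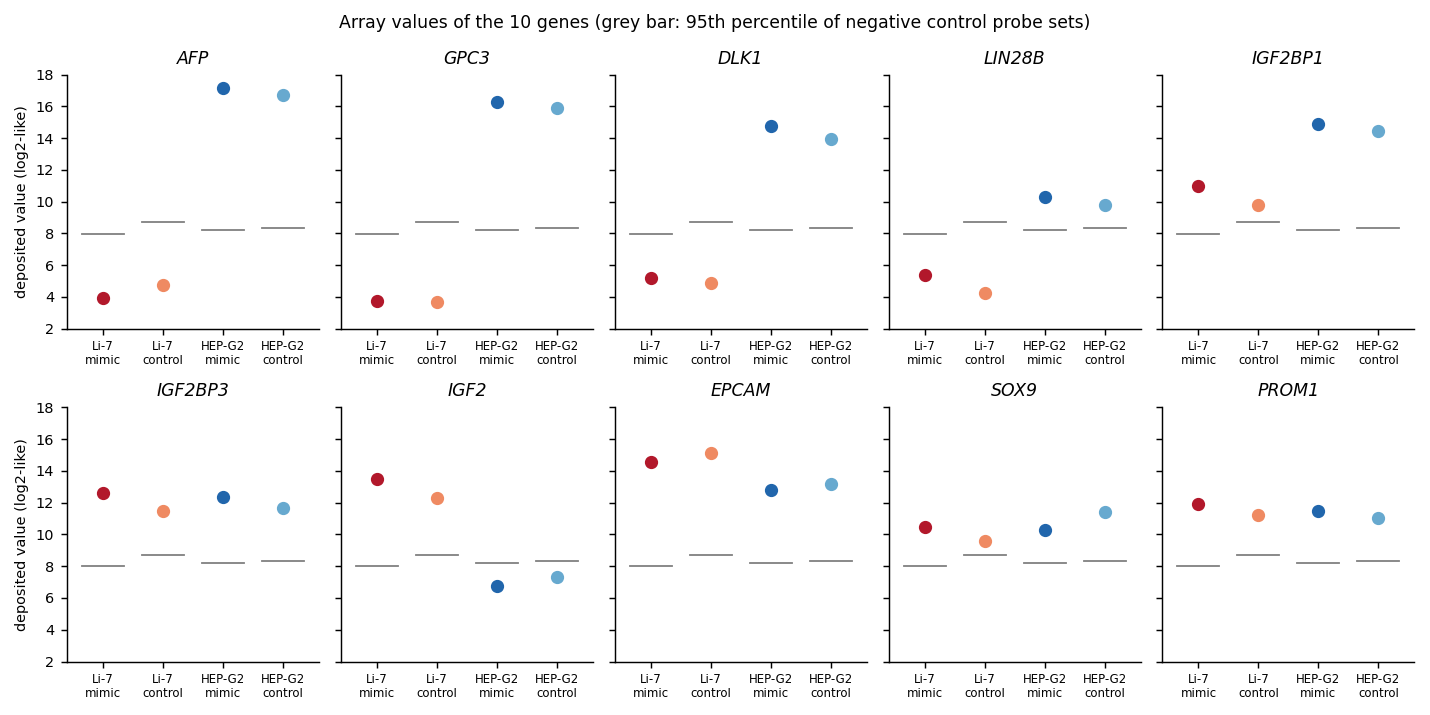
Deposited log2-like value (y axis) of each of the 10 genes on the 4 arrays (x axis, 1 point per array), with the dim limit of that array as a grey bar (the 95th percentile of its negative controls). AFP, GPC3, DLK1 and LIN28B lie under the bar on both Li-7 arrays, IGF2 lies under it on both HEP-G2 arrays, and the other 5 genes lie above it on all 4.

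AFP stood at 3.92 with mimic and 4.75 with control in Li-7, and at 17.17 with mimic and 16.71 with control in HEP-G2. Both Li-7 arrays were dim and the lines did not overlap. The line difference was -12.60 (Li-7 minus HEP-G2, SE 0.35, limma adjusted p = 1.64e-06). Since the Li-7 values are only bounds, the level was at least 383-fold lower in Li-7, taking the dim limit of each Li-7 array in place of its value.

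GPC3, which modulates Wnt and hedgehog signals at the membrane, stood at 3.73 with mimic and 3.69 with control in Li-7, and at 16.26 with mimic and 15.88 with control in HEP-G2. Its pattern was that of AFP, dim in one line and bright in the other. The difference was -12.36 (SE 0.25, adjusted p = 1.31e-06, limma), or at least 210-fold lower in Li-7.

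DLK1, a membrane protein related to NOTCH ligands and a marker of hepatoblasts, stood at 5.20 with mimic and 4.89 with control in Li-7, and at 14.74 with mimic and 13.94 with control in HEP-G2. The lines were again apart on every array. The difference was -9.29 (SE 0.26, adjusted p = 1.64e-06, limma), or at least 63.2-fold lower in Li-7.

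LIN28B stood at 5.37 with mimic and 4.22 with control in Li-7, against 10.32 with mimic and 9.82 with control in HEP-G2. It was dim on both Li-7 arrays and above the limit on both HEP-G2 arrays. The difference was -5.27 (SE 0.27, adjusted p = 1.29e-05, limma), and the bound was at least 3.27-fold lower in Li-7.

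The pair of RNA-binding paralogs did not go together across lines. IGF2BP1 stood at 10.98 with mimic and 9.77 with control in Li-7, and at 14.90 with mimic and 14.45 with control in HEP-G2, a difference of -4.30 (SE 0.28, adjusted p = 3.51e-05, limma), or 19.7-fold lower in Li-7. All 4 of these values were above the limit and the lines did not overlap. IGF2BP3 stood at 12.61 with mimic and 11.48 with control in Li-7, and at 12.39 with mimic and 11.68 with control in HEP-G2. There the lines overlapped, and the difference was 0.01 (SE 0.26, limma 95% interval -0.59 to 0.62, adjusted p = 0.972).

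IGF2, the fetal growth factor read by the insulin-like growth factor receptor, ran the other way from AFP. It stood at 13.50 with mimic and 12.27 with control in Li-7, and at 6.74 with mimic and 7.34 with control in HEP-G2, where both arrays were dim. The difference was 5.85 (SE 0.42, adjusted p = 5.54e-05, limma), or at least 24.4-fold higher in Li-7. The readthrough gene INS-IGF2 overlaps IGF2, and whether its transcripts reach this probe set was not tested. Whether the probe set reads all IGF2 transcripts was not tested either, so the dim call in HEP-G2 and the fold hold for this probe set only.

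EPCAM, an epithelial adhesion protein and progenitor marker, stood at 14.59 with mimic and 15.13 with control in Li-7, and at 12.81 with mimic and 13.15 with control in HEP-G2. It was above the limit in both lines and higher in Li-7 by 1.88 (SE 0.25, adjusted p = 0.000923, limma), or 3.67-fold. PROM1, the membrane protein CD133, stood at 11.89 with mimic and 11.24 with control in Li-7, and at 11.48 with mimic and 11.04 with control in HEP-G2. The PROM1 ranges overlapped, with a difference of 0.30 (95% interval -0.29 to 0.89, limma adjusted p = 0.362). SOX9, the transcription factor of biliary and progenitor cells, stood at 10.47 with mimic and 9.59 with control in Li-7, and at 10.27 with mimic and 11.41 with control in HEP-G2. The SOX9 lines overlapped too, with a difference of -0.81 (SE 0.46, 95% interval -1.90 to 0.27, limma adjusted p = 0.192). Taken on the mimic arrays alone it was 0.20, and on the control arrays alone -1.83.

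For the other 9 genes the line differences on mimic and on control arrays had the same sign, except for IGF2BP3 (0.22 and -0.19). With an ordinary t statistic in place of limma's moderated one, 0 of the 10 genes passed the line test, and 1 of all 12381 did. The line test has 1 residual degree of freedom per gene, which measures how evenly the lines answered the mimic. To this limma adds a variance estimated over all genes (5.85 prior degrees of freedom), which carries most of the weight in its p values. Neither p value measures a spread between cultures, which was not measured.

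**Figure D2:**
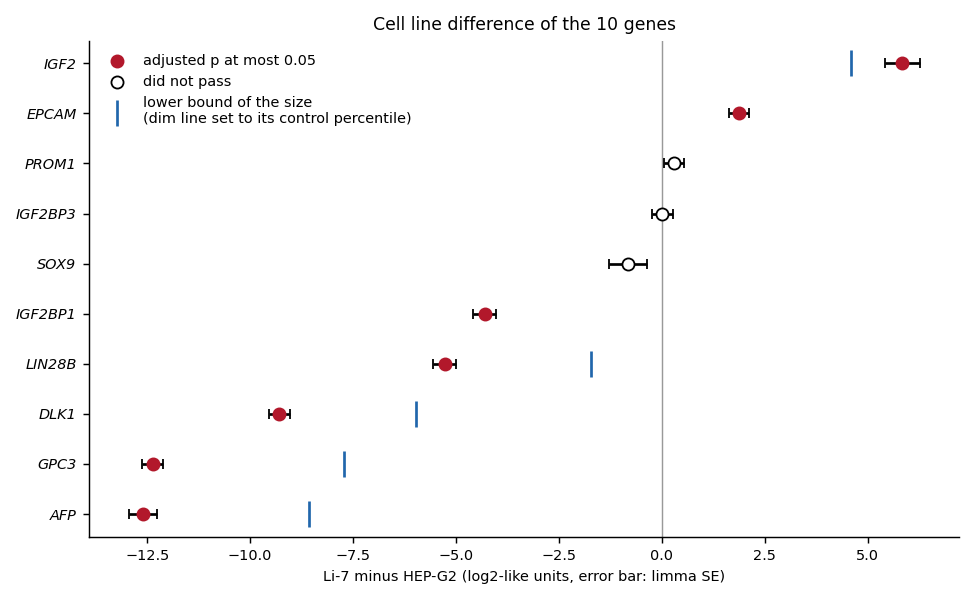
Li-7 minus HEP-G2 difference (x axis, log2-like units) of the 10 genes from the limma fit over 4 arrays, with the SE as error bar and, for genes dim in 1 line, the lower bound of its size as a blue tick. Filled points passed at an adjusted p of 0.05, and they run from -12.60 for AFP to 5.85 for IGF2. Those of AFP, GPC3 and LIN28B are descriptions, since these genes reached the filter through HEP-G2 alone.

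The promoter window of AFP is shown because this gene had the widest line difference of the 10. It holds 250 bases before and 50 after the start, at chr4:73435971-73436270 on the plus strand of GRCh38.p14 (RefSeq), with 1 match to the half-site of HNF1, a liver transcription factor (GTTAAT, searched on both strands), and 1 match to the TATA box (TATAAA, both strands) in capitals.
AFP: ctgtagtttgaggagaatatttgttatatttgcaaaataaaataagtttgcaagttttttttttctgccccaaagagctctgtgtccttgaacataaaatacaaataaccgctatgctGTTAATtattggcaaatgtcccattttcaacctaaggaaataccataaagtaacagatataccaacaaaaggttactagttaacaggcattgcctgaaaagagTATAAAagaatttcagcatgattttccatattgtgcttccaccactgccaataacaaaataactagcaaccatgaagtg
The HNF1 match begins at base -132 and the TATA match at base -29 relative to the start. Of 35116 promoter windows of this length, 6.88% held the first motif and 11.5% the second. Neither motif was found in the windows of IGF2BP3 (1), LIN28B (2) or PROM1 (4), the other members among the 4 with a promoter in the table. A match is a description of letters only.

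By Euclidean distance over the 4 arrays after each gene's own mean was removed, the genes most like AFP were APOB (distance 0.53), GPC3 (0.67) and FGG, a fibrinogen chain (1.12). Those most like IGF2 were CPM, a carboxypeptidase (0.18), HABP2, a plasma protease (0.32), and MATN2, a matrix protein (0.41). The genes nearest to IGF2BP3, the member with the widest mean change with the mimic, were LAMC1, a laminin chain (0.07), LUC7L (0.11) and UBE2Z (0.13). IGF2, CPM, HABP2 and MATN2 were dim on both HEP-G2 arrays, and AFP, APOB, GPC3 and FGG on both Li-7 arrays. All of these but IGF2 reached the filter through their bright line alone, so the AFP and IGF2 distances rest partly on dim values. With 4 arrays the distances describe the values only.

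No member passed the test of a common response to the mimic, which called 0 of 10 genes against 0.42% of all genes (52 of 12381). At an unadjusted p under 0.05, limma held 3 of the 10, against 19.5% of all genes, and all 3 were higher with the mimic, against 9.75%. The 3 were IGF2BP3, IGF2BP1 and LIN28B. Of the 10 genes, 6 were higher with the mimic in both lines, 1 was lower in both and 3 had opposite signs, against 34.1%, 31% and 34.9% of all genes. Among the 6, LIN28B, DLK1 and GPC3 were dim on both Li-7 arrays. Among those with opposite signs, AFP was dim in Li-7 and IGF2 in HEP-G2, so these signs rest partly on dim values. The median difference (mimic minus control) of the 10 was 0.77 for Li-7 and 0.45 for HEP-G2, and the median of all genes tested was 0.02 for either line. The Li-7 median of the 10 includes the 4 genes dim on both Li-7 arrays.

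IGF2BP3 was 1.13 higher with the mimic in Li-7 and 0.71 higher in HEP-G2, with values as given above, and on both lines the mimic array was the higher one. Its mean change of 0.92 (SE 0.26, 95% interval 0.31 to 1.53, or 1.89-fold) had a limma adjusted p of 0.136. IGF2BP1 differed by 1.21 in Li-7 and 0.45 in HEP-G2, a mean of 0.83 (SE 0.28, limma adjusted p = 0.188). IGF2BP2, the third paralog, from the LIN28 list, differed by 1.20 in Li-7 and 0.69 in HEP-G2 (mean 0.95, limma adjusted p = 0.134). So all 3 paralogs were higher with the mimic on both lines, as were 34.1% of all genes, and none passed over all genes. IGF2BP2 was named because its mean mimic change was among the widest of its list.

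LIN28B differed by 1.15 in Li-7, where both values are dim and no fold can be given, and by 0.50 in HEP-G2 (mean 0.82, SE 0.27, limma adjusted p = 0.180). DLK1 differed by 0.31 between dim Li-7 values and by 0.80 in HEP-G2 (mean 0.55, SE 0.26, limma adjusted p = 0.305). GPC3 differed by 0.04 in Li-7, again between dim values, and by 0.39 in HEP-G2 (mean 0.21, limma adjusted p = 0.693). Where these 3 genes were above the limit, that is in HEP-G2, each was higher on the mimic array by under 2-fold.

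Among the surface markers, PROM1 was 0.65 higher with the mimic in Li-7 and 0.44 higher in HEP-G2 (mean 0.55, 95% interval -0.04 to 1.13, limma adjusted p = 0.283). EPCAM was the 1 member lower with the mimic in both lines, by -0.54 in Li-7 and -0.33 in HEP-G2 (mean -0.44, 95% interval -1.02 to 0.15, limma adjusted p = 0.382).

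AFP, IGF2 and SOX9 had opposite signs. SOX9 differed with the mimic by 0.89 in Li-7 and by -1.14 in HEP-G2, all on values above the limit. IGF2 differed by 1.23 in Li-7, where it was bright, and by -0.60 in HEP-G2 between dim values. AFP differed with the mimic by -0.84 in Li-7 between dim values and by 0.46 in HEP-G2, where it was bright. The difference between lines was not tested for any of them, since each line had 1 array per treatment.

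As single-array differences with no test, 4 of the 10 passed 2-fold in Li-7 (IGF2, IGF2BP1, LIN28B and IGF2BP3, all higher), against 7.84% of all genes in either direction and 3.72% higher. So did 1 of the 10 in HEP-G2 (SOX9, lower), against 12% in either direction and 6.28% lower. LIN28B was dim on both Li-7 arrays.

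**Figure D3:**
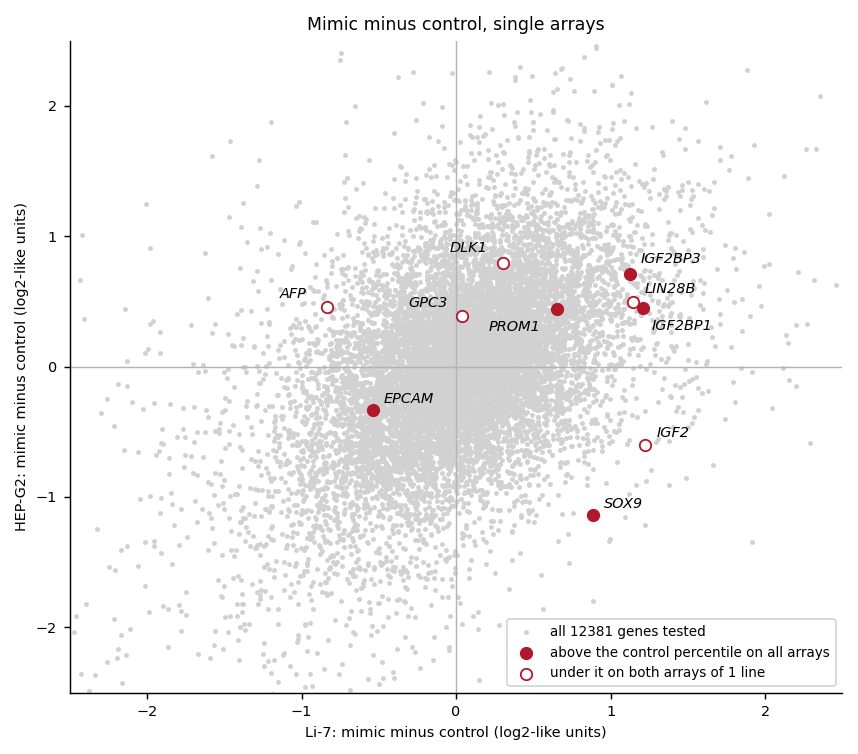
Mimic minus control in Li-7 (x axis) against HEP-G2 (y axis), each a difference of 2 single arrays in log2-like units, for the 10 genes (red) and all 12381 genes tested (grey; axes end at 2.5, which leaves 59 genes outside). IGF2BP3 (1.13 and 0.71) lies in the upper right, and SOX9 (0.89 and -1.14) and IGF2 (1.23 and -0.60) in the lower right.

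Genes around the 10 members were taken from 8 lists chosen by function. No list gene passed the common mimic test in either direction in any of the 8 lists, so only line calls are counted below. Pairs of values are the mimic array, then the control array, and line calls stand beside the 44.9% of all genes that passed the line test. Of the list genes called, HES1, IRS2, SDC3, SPINT2 and CFTR reached the filter through Li-7 alone and FOXA3 through HEP-G2 alone. Their line calls are descriptions.

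In the insulin-like growth factor axis, 6 of 11 genes tested were higher in Li-7 and 4 lower, with a median line difference of 1.57. Of the 6, IRS1, IRS2 and IGFBP6 were dim on all 4 arrays, so no fold is given for these 3. IGFBP3, a carrier of the growth factors, stood at 13.39 and 13.18 in Li-7, mimic and control, against 5.62 and 4.25 in HEP-G2, at least 32.3-fold higher in Li-7 (limma adjusted p = 4.38e-06). IGFBP7, another binding protein, was higher in Li-7 by 4.91. IGFBP1, a carrier made by hepatocytes, had the widest mean mimic difference of the list (1.66 in Li-7 and 1.16 in HEP-G2, limma adjusted p = 0.0756).

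In the LIN28 and let-7 list, 6 of 11 genes tested were lower in Li-7 and 0 higher, with a median of -1.08, and 1 of the 6 (ARID3B) was dim on all 4 arrays. ARID3A, a DNA-binding protein, was lower in Li-7 with a difference of -4.38, at 10.39 and 9.92 against 14.39 and 14.69 in HEP-G2. TRIM71, an RNA-binding ubiquitin ligase of early embryos, was dim in Li-7 at 7.17 and 6.95, against 11.62 and 11.02 in HEP-G2, at least 7.81-fold lower in Li-7. HMGA2, a let-7 target, stood at 9.89 with mimic and 7.74 with control in Li-7 and at 8.35 with mimic and 8.45 with control in HEP-G2 (mean mimic change 1.03, limma adjusted p = 0.310), and its Li-7 control value was dim.

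Of 11 tested genes in the list of the albumin family and regulators of AFP, 5 were lower in Li-7 and 0 higher, with a median of -0.63, and 2 of the 5 (FOXA3 and ONECUT1) were dim on all 4 arrays. ALB, albumin, was dim in Li-7 at 7.19 and 7.30, against 12.21 and 12.46 in HEP-G2, at least 15.8-fold lower in Li-7. CEBPA, a hepatocyte transcription factor, was lower in Li-7 with a difference of -3.12, but only its HEP-G2 control value was above the limit. FOXA1, a pioneer factor, differed with the mimic by -0.58 in Li-7 and by -0.82 in HEP-G2. NR5A2, a nuclear receptor, differed by 0.57 and 0.84 (limma adjusted p = 0.197 for each).

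Other oncofetal tumour genes were split between the lines, with 2 of 10 tested higher in Li-7 and 5 lower. DKK1, a secreted Wnt inhibitor, stood at 14.73 and 15.25 in Li-7 against 7.17 and 6.55 in HEP-G2, at least 105-fold higher in Li-7. GOLM1, a Golgi protein, was at least 43.5-fold higher in Li-7. VIL1, villin, was dim in Li-7 and at least 8.78-fold lower there, and it differed with the mimic by 0.46 in Li-7 and by 1.60 in HEP-G2 (limma adjusted p = 0.167). PEG10, an imprinted gene, differed with the mimic by -1.70 in Li-7 and by 0.02 in HEP-G2.

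Biliary and progenitor genes were mostly higher in Li-7, with 9 of 13 tested higher and 2 lower and a median of 2.51. The 2 lower in Li-7 were ANPEP, with a difference of -5.78 and a dim Li-7 control value, and GGT1, with a difference of -1.76. CD24 stood at 14.39 and 14.85 in Li-7 against 5.58 and 5.82 in HEP-G2, at least 81.1-fold higher in Li-7, and CD44, the hyaluronan receptor, was at least 46.3-fold higher. KRT19, a biliary keratin, stood at 14.61 with mimic and 14.84 with control in Li-7, and at 11.66 with mimic and 9.07 with control in HEP-G2. GGT1, a gamma-glutamyl transferase, differed with the mimic by 1.12 in Li-7 and 1.24 in HEP-G2 (limma adjusted p = 0.0877).

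In the NOTCH list, 3 of 11 genes tested were higher in Li-7 and 2 lower, together a share near that of all genes. HES1, a NOTCH target, was above the limit in Li-7 (9.95 and 10.20) and dim in HEP-G2 (3.89 and 3.97), at least 3.48-fold higher in Li-7, and NOTCH2, a receptor, was higher by 3.33. JAG1, a ligand, differed with the mimic by 0.84 in Li-7 and 0.99 in HEP-G2 (limma adjusted p = 0.127), and NOTCH2 by 0.75 and 0.73.

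Among glypicans, syndecans and heparan sulfate enzymes, 4 of 11 tested were higher in Li-7 and 2 lower. NOTUM, an enzyme that inactivates Wnt, was dim in Li-7 at 7.02 and 7.19 against 11.33 and 11.64 in HEP-G2, at least 8.72-fold lower in Li-7. Of those higher in Li-7, SDC3 and GPC4 were dim on all 4 arrays, so no fold is given. GPC6, a relative of GPC3, stood at 9.24 with mimic and 8.31 with control in Li-7 and at 9.20 with mimic and 7.49 with control in HEP-G2, both control values being dim (mean mimic change 1.32, limma adjusted p = 0.0907). SDC4 differed with the mimic by 0.22 in Li-7 and 2.26 in HEP-G2 (limma adjusted p = 0.215).

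Of the EPCAM list, 5 of 9 tested were higher in Li-7 and 0 lower. CD9, a tetraspanin, stood at 15.67 and 15.36 in Li-7 against 6.39 and 4.45 in HEP-G2, at least 151-fold higher in Li-7. FHL2, a partner of the cleaved EPCAM tail, differed with the mimic by 1.37 in Li-7 and 1.11 in HEP-G2 (limma adjusted p = 0.0850). SPINT2, a protease inhibitor, and LEF1, a transcription factor of the Wnt pathway, were among the 5 but dim on all 4 arrays.

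**Figure D4:**
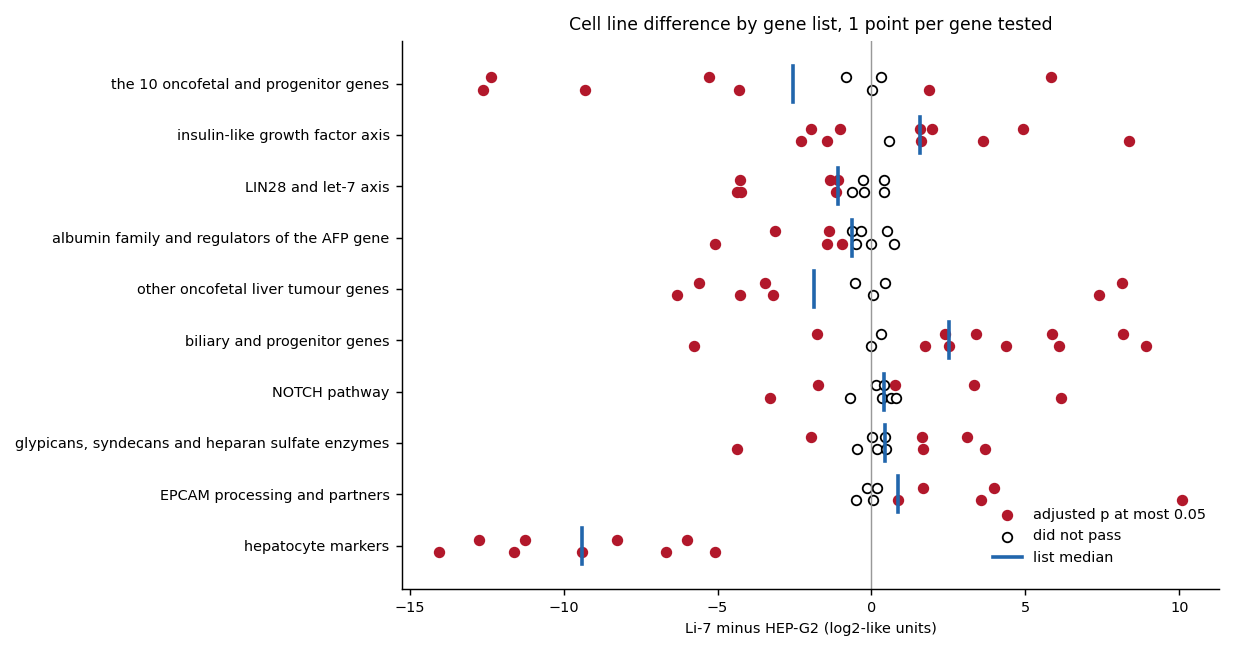
Li-7 minus HEP-G2 difference (x axis, log2-like units), 1 point per gene tested, for the 10 genes, the 8 functional lists and the hepatocyte markers (rows), with list medians in blue and filled points for an adjusted p of at most 0.05. The 9 hepatocyte markers all lie left of 0 and the 10 genes span both sides. Filled points of genes that reached the filter through 1 line alone, among them APOB, TF, AHSG, AFP, GPC3 and LIN28B, are descriptions.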

How the data were processed

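Values of 24351 probe sets, already summarised, were deposited by the authors as 1 table on a log2-like scale, running from 1.48 to 18.3. Affymetrix Expression Console and Transcriptome Analysis Console are named per the submitters' processing notes; background correction, normalization, log base and genome build are steps not given in the sources used here, so folds are on the deposited scale.

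All 17709 probe sets with 1 gene name matched RefSeq (GRCh38.p14) by Entrez identifier, giving 17687 genes; where a gene had several probe sets, the brightest by mean was used. The test kept 12381 genes whose mean reached the 30th percentile (4.90). Linear models with cell line and treatment were fitted in R 4.3.3 with limma 3.58.1 (lmFit, eBayes, 5.85 prior degrees of freedom), with Benjamini-Hochberg adjustment over all genes tested and a threshold of 0.05. The procedure was tested on simulated arrays. Lower bounds set the dim line to its arrays' control percentile. From each list, the 2 genes with the widest mean mimic change and the 2 with the widest line difference were named, and for 3 members the 3 nearest genes. Members and lists were chosen with earlier results of these data known. Alternatives were other normalizations, filters, variance moderation, models and fold limits. The number of arrays limits the precision, and with 1 array per group no group could be replicated.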

Additional observations from a re-analysis of the deposited data

Results flagged for a closer look

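With 1 array per treatment in each line, the responses below pointed opposite ways in Li-7 and HEP-G2, and the difference was not tested for any of them. Of all genes tested, 34.9% had opposite signs. Among the 10 members, mimic minus control for AFP came to -0.84 in Li-7 but 0.46 in HEP-G2. For IGF2 the same pair was 1.23 and -0.60, and for SOX9 0.89 and -1.14. AFP in Li-7 and IGF2 in HEP-G2 were dim on both arrays.

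List genes are given here only where they were named for the widest mean mimic change or line difference of their list. For these, the pair of values (Li-7, then HEP-G2) was 2.15 and -0.10 for HMGA2, 0.47 and -0.30 for ARID3A, 0.37 and -0.56 for CEBPA, and -1.70 and 0.02 for PEG10. It was -0.52 and 0.61 for DKK1, -0.23 and 2.59 for KRT19, -0.42 and 0.88 for SDC3, and -0.71 and 0.39 for SPINT2, the last pair of genes being dim on all arrays. CEBPA was dim on 3 of the 4 arrays (all but the HEP-G2 control), DKK1 on both HEP-G2 arrays and HMGA2 on the Li-7 control array. Other genes of the lists had opposite signs too, among them LGR5 with -1.47 in Li-7 and 1.15 in HEP-G2, above the limit on all 4 arrays.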

How the results depend on the processing

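The count of 7 line calls among the 10 members was the same under quantile normalization, cyclic loess, median centring, the mean of probe sets, a stricter filter (at the median gene) and none, eBayes with a trend or robust, and without treatment in the model. Among the 7, AFP, GPC3 and LIN28B reached the main filter through HEP-G2 alone, so this count remains a description. With an ordinary t statistic, which has 1 residual degree of freedom, 0 members and 1 gene in all passed the line test. The line difference of IGF2BP3 turned to -0.027 after cyclic loess and -0.11 after median centring, never near the threshold. No member passed the common mimic test under any alternative run. The adjusted p of IGF2BP3 ran from 0.0606 to 1, and the direction of the mean mimic change was the same for all 10 members. The count of genes called for the mimic, 52 as deposited (19.2% of them higher), was 447 after quantile normalization (41.4% higher), 23 after cyclic loess (17.4% higher), 366 with a filter at the median gene (34.7% higher), 411 with an eBayes trend (38.4% higher), 1 by the ordinary t and 0 in a model lacking cell line, where 182 genes had an unadjusted p under 0.05. At a 1.5-fold limit, 3112 genes and 7 members lay past it in Li-7, and 4032 genes and 4 members in HEP-G2. Median centring moved the median line difference of all genes to -0.10 (0.03 as deposited). No array could be left out, since 3 arrays leave no residual degree of freedom, and no paired analysis was possible because each group holds 1 array, beyond cell line as a term of the model.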
